A study of Mus musculus with 6 samples.

Results

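Interstitial cells of Cajal are the electrical pacemaker cells of the gut wall, and 8 genes of these cells and of pacemaking were followed here in distal colon of Gm31629-/- and WT mice. The members were chosen by name from 27546 listed genes and were Kit, Ano1, Etv1, Thbs4, Gja1, Gjc1, P2ry1, and Hcn2. All 8 were listed, and all 8 passed the filter of a mean of at least 0.5 FPKM over the 6 libraries. Etv1 and Gjc1, with WT means of 0.0926 and 0.0949 FPKM, passed it only through their Gm31629-/- values. FPKM divides the fragments of a gene by gene length and library depth, so that levels can be compared between genes. The groups were 3 Gm31629-/- mice and 3 littermate WT mice of the C57BL/6 strain, 8 weeks old, with 1 library per mouse. All 6 mice drank water with 3% DSS (dextran sulfate sodium, a chemical that damages the lining of the colon) over 7 days, their colons were taken on day 8, and no untreated colon was compared. The knockout removes the Gm31629 sequence, a long noncoding RNA gene, from every cell, so no change can be assigned to one cell type by design. No listed gene carried the symbol Gm31629, and its level was not analysed here.

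Interstitial cells of Cajal lie between the smooth muscle cells and the nerve fibers of the wall. They depend on the receptor tyrosine kinase Kit and its ligand, and they generate slow waves when calcium released from internal stores opens the chloride channel Ano1. The waves pass through gap junctions to smooth muscle, and nerves act on the interstitial cells and on neighboring PDGFRA-positive cells. No member is made by interstitial cells alone. Kit is also found on mast cells and on secretory cells at the base of colonic crypts, Ano1 in secretory epithelia, connexins in many cell types, and HCN channels in neurons.

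By the depth that the values imply, the libraries held 18006000 to 18795100 fragments. In 1 library, that of Gm31629-/- mouse 1, all 4 Y-linked genes examined exceeded 1 FPKM and Xist was at 0.00606 FPKM, while in the other 5 libraries the Y-linked genes were at 0 and Xist lay between 8.35 and 13.8 FPKM. The methods name male mice, so 5 libraries go against that statement, and results are also given without mouse 1. Of 14657 tested genes, 2704 were called higher and 680 lower in Gm31629-/- mice. A call required a limma p on log2(FPKM + 1) under 0.05 after Benjamini-Hochberg adjustment together with a change of more than 1 on the log2 scale. Across tested genes the log2 fold change had a median of 0.15, and of -0.05 once libraries were scaled by the median ratio. With 3 mice per group, an exact two-sided permutation test of 1 gene cannot reach a p below 0.1. The methods speak of pooled RNA while the table has a column per mouse, so the p-values measure the spread between these libraries, which may be partly technical.

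The members divided by gene rather than moving together. Gja1, Gjc1, Thbs4, and Etv1 rose in Gm31629-/- mice, while Kit, Ano1, P2ry1, and Hcn2 were not called. The count of 4 of 8 called higher stands beside 18.4% of all tested genes, and the count of 0 of 8 called lower beside 4.64%. Of the 4, Etv1 and Gjc1 entered the test only through the group in which they were high. At an unadjusted limma p under 0.05 regardless of fold, 1 member, Hcn2, was lower (18.9% of tested genes), and limma with voom on recovered fragments also called 0 of 8 lower (6.79% of the genes it tested). All 3 Gm31629-/- values lay above all 3 WT values for 4 members (36.3% of tested genes) and below them for 1 member (21.5%). By adjusted p alone, 4 members were higher (28.9% of tested genes) and 1 was lower (14.6%). The median log2 fold change of the 8 members was 0.53. In bulk tissue, fewer cells of a type and less RNA per cell cannot be told apart, and the same holds for more.

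Kit (ENSMUSG00000005672, chromosome 5, 75574916 to 75656722 of GRCm38, plus strand) encodes the receptor that interstitial cells of Cajal need to develop and persist. Its level was 7.57, 5.49, and 3.03 FPKM in Gm31629-/- mice 1 to 3 and 4.69, 4.88, and 5.45 FPKM in WT mice 1 to 3. The WT values fell inside the range of the Gm31629-/- values, which held both the highest and the lowest library. The group means were 5.36 ± 2.27 and 5.01 ± 0.397 FPKM (SD, n = 3 each), with a log2 fold change of 0.02 (95% interval -0.63 to 0.67, limma adjusted p = 0.963). The sign was not stable, with -0.20 after scaling by the median ratio and -0.23 without Gm31629-/- mouse 1.

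Ano1 (ENSMUSG00000031075, chromosome 7, 144588549 to 144751974, minus strand) encodes the calcium-activated chloride channel that carries the pacemaker current. It had 5.36, 8.00, and 6.14 FPKM in Gm31629-/- mice and 6.83, 6.19, and 6.54 FPKM in WT mice, and the groups overlapped. The means were 6.50 ± 1.36 and 6.52 ± 0.320 FPKM (SD, n = 3 each). The log2 fold change was -0.02 (95% interval -0.42 to 0.39, limma adjusted p = 0.941), the narrowest interval among the members that were not called, and it was 0.09 without Gm31629-/- mouse 1.

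Etv1 (ENSMUSG00000004151, chromosome 12, 38779380 to 38870484, plus strand) encodes an ETS transcription factor on which the interstitial cell lineage depends. It had 1.57, 2.03, and 0.475 FPKM in Gm31629-/- mice, which corresponds to 383, 497, and 116 fragments. In WT mice it had 0.106, 0.0961, and 0.0760 FPKM, or 26, 23, and 19 fragments, so each WT library lay below each Gm31629-/- library. The ratio of group means was 14.6, and the log2 fold change, which adds 1 to each FPKM and so understates low genes, was 1.04 (95% interval 0.41 to 1.68, limma adjusted p = 0.0188). The call was lost without Gm31629-/- mouse 1 (log2 fold change 0.95, adjusted p = 0.0436), without mouse 2 (0.83, adjusted p = 0.0390), without any WT mouse (adjusted p from 0.0538 to 0.0671), and after scaling by the median ratio (0.95). With voom on recovered fragments the log2 fold change was 3.62 (limma adjusted p = 0.00867). Of the 3 defining genes of interstitial cells, Etv1 was thus the only one called in the fit of the deposited values.

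Thbs4 (ENSMUSG00000021702, chromosome 13, 92751590 to 92794818, minus strand) encodes thrombospondin 4, a secreted matrix glycoprotein. It was the most abundant member in both groups, with 111, 82.4, and 125 FPKM in Gm31629-/- mice and 43.8, 37.4, and 34.7 FPKM in WT mice. The lowest Gm31629-/- library was above the highest WT library. The means were 106 ± 21.7 and 38.6 ± 4.67 FPKM (SD, n = 3 each), a ratio of 2.75, and the log2 fold change was 1.42 (95% interval 0.97 to 1.87, limma adjusted p = 0.00168). It was 1.38 without Gm31629-/- mouse 1 and 1.16 after scaling by the median ratio, and remained called.

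The largest differences were in the gap junction genes. Gja1 (ENSMUSG00000050953, chromosome 10, 56377330 to 56402513, plus strand) encodes a connexin made by many cell types of the wall and mucosa. It had 4.51, 20.7, and 14.9 FPKM in Gm31629-/- mice and 0.511, 0.996, and 0.488 FPKM in WT mice. The groups did not overlap, although mouse 1 lay well below the other Gm31629-/- mice. The ratio of means was 20.1, with a log2 fold change of 2.91 (95% interval 1.78 to 4.03, limma adjusted p = 0.0035), or 3.49 without mouse 1. Gjc1 (ENSMUSG00000034520, chromosome 11, 102799579 to 102819700, minus strand) encodes a connexin of smooth muscle, interstitial cells, and vessels. It had 2.83, 2.92, and 2.06 FPKM in Gm31629-/- mice, or 261, 270, and 189 fragments. In WT mice it had 0.0432, 0.178, and 0.0638 FPKM, or 4, 16, and 6 fragments, so the lowest WT value is close to the 3 fragments that a value of 0 would allow. The ratio of means was 27.5, and 48.7 without WT mouse 2, the highest of the WT mice. It was called in every fit without 1 mouse, and the log2 fold change was 1.71 (standard error 0.17, adjusted p = 0.000554 in limma) and 4.93 with voom on fragments.

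**Figure D1:**
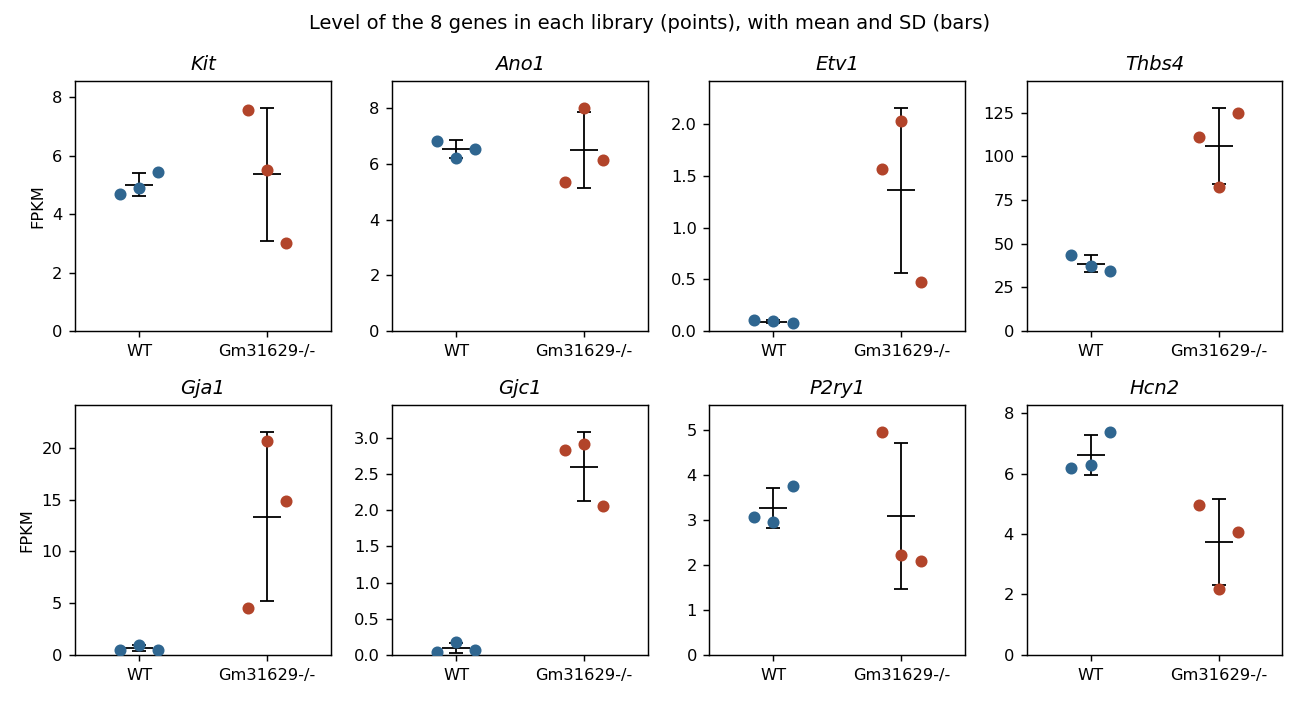
Level of each of the 8 genes in FPKM (vertical axes, linear from 0) in the 3 WT libraries (blue) and the 3 Gm31629-/- libraries (red), with the mean and SD as bars. Gja1, Gjc1, Etv1, and Thbs4 are higher in all 3 Gm31629-/- libraries, Hcn2 is lower in all 3, and Kit, Ano1, and P2ry1 overlap.

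P2ry1 (ENSMUSG00000027765, chromosome 3, 61002795 to 61008982, plus strand) encodes the purine receptor through which inhibitory nerves relax the gut wall. It had 4.96, 2.21, and 2.08 FPKM in Gm31629-/- mice and 3.07, 2.95, and 3.76 FPKM in WT mice. Mouse 1 lay above, and mice 2 and 3 below, all WT values. The log2 fold change was -0.13 (95% interval -0.77 to 0.52, limma adjusted p = 0.734) and -0.43 without mouse 1 (adjusted p = 0.087). Of its exon bases, 23.1% are shared with Gm37035 on the other strand, and whether the counting used strand is not given in the sources used here, so fragments of these genes may not have been told apart.

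Hcn2 (ENSMUSG00000020331, chromosome 10, 79716634 to 79736108, plus strand) encodes a cation channel that opens on hyperpolarization and paces heart and nerve cells. It had 4.95, 2.17, and 4.07 FPKM in Gm31629-/- mice and 6.19, 6.29, and 7.39 FPKM in WT mice. It was the only member with every Gm31629-/- value below every WT value, and its WT mean was 1.78 times the Gm31629-/- mean. The log2 fold change was -0.73 (95% interval -1.32 to -0.15, limma adjusted p = 0.0485), within the threshold on p but not on fold. The adjusted p was 0.0239 without Gm31629-/- mouse 1 and 0.0735 to 0.154 without any other mouse.

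The sequence before the start site was read for members that rose and members that did not. RefSeq windows of 250 bases before the start (GRCm38.p6) were matched for 7 of the 8 members. Stretches inside annotated exons were cut away, which removed the P2ry1 window entirely. Below are 2 members that rose and the 2 defining genes that did not, each 5′ to 3′ on the strand of the gene, with capitals marking matches to the searched motifs on either strand. They are Gja1 at chr10:56377050-56377299, Etv1 at chr12:38779832-38780081, Kit at chr5:75574737-75574915, and Ano1 at chr7:144738593-144738823. The genes lie on the plus strand except Ano1, and the Etv1 and Ano1 windows fall between exons inside the gene as GENCODE draws it, since RefSeq places the start there.
Gja1: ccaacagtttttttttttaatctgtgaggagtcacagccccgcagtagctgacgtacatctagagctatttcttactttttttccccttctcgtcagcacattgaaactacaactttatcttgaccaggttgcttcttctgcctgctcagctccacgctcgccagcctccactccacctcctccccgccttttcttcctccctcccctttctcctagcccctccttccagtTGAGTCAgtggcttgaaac
Etv1: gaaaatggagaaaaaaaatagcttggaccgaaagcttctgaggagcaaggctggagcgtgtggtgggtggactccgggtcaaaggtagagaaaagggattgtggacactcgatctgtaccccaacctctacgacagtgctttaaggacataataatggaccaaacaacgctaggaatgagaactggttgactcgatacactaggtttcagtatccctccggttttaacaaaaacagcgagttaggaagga
Kit: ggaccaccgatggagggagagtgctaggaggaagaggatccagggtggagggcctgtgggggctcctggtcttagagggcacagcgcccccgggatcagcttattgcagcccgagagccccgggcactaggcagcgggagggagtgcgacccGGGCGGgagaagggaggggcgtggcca
Ano1: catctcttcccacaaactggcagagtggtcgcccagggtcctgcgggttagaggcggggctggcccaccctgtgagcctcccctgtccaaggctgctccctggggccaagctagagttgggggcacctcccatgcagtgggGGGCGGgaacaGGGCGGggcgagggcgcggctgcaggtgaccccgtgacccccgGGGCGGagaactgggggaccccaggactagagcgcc
The share of G and C was 50.0% for Gja1 and 46.4% for Etv1 against 69.3% for Kit and 71.0% for Ano1. Among the windows not printed, Thbs4, which rose, had 70.8% and Hcn2 had 70.4%, so the share of G and C did not divide the members by their change. The capitals in Gja1 mark TGANTCA, the core bound by AP-1 factors, which was found in 6.87% of 27025 windows of this length. Those in Kit and Ano1 mark GGGCGG, the GC box, which had 1 match in Kit and 3 in Ano1 and was found in 30.4% and 32.4% of windows of those lengths. These comparison windows ended at the start and were not cut at exons. The Kit and Ano1 stretches ended 71 and 19 bases before it, so the positions are unlike. Neither the CArG box of smooth muscle genes (1.40% of windows of 250 bases), nor the ETS motif CCGGAAG (7.05%), nor TATAAA (3504 of the 27025 windows) was found in any of the members' stretches. A match describes letters only and is not evidence of binding.

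The order of the levels differed between the groups. In WT mice the order by mean FPKM was Thbs4, Hcn2, Ano1, Kit, P2ry1, Gja1, Gjc1, and Etv1. Neighbors in this order were separated in every library except Hcn2 and Ano1 (6.63 ± 0.667 and 6.52 ± 0.320 FPKM) and Gjc1 and Etv1 (0.0949 ± 0.0724 and 0.0926 ± 0.0151 FPKM), whose ranges overlapped. In Gm31629-/- mice the order was Thbs4, Gja1, Ano1, Kit, Hcn2, P2ry1, Gjc1, and Etv1. There the ranges of all neighbors from Gja1 to Gjc1 overlapped, and only Thbs4 and Etv1 stood apart from their neighbors. Gja1 went from the sixth place to the second, and Hcn2 from the second to the fifth.

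Markers of muscle and nerve in the wall differed more than Kit and Ano1 did, while the third defining gene, Etv1, had a ratio of means of 14.6. The 12 smooth muscle markers summed to 1600 to 2620 FPKM in Gm31629-/- mice and 28.3 to 54.3 FPKM in WT mice. Of the 12, 11 were called higher, beside 18.4% of all tested genes, with a median log2 fold change of 5.45. The most abundant were Acta2, the smooth muscle actin, with 557 ± 95.5 against 8.25 ± 5.18 FPKM, Myl9 with 390 ± 156 against 5.12 ± 3.05 FPKM, and Actg2 with 279 ± 60.9 against 1.81 ± 1.61 FPKM (SD, n = 3 each). The exception, Tagln, singled out after its values were seen, shares 67.9% of its exon bases with genes on the other strand and had 1.34 ± 0.677 against 0.320 ± 0.115 FPKM. The 15 enteric neuron and glia markers summed to 69.9 to 291 FPKM against 2.96 to 5.61 FPKM, with 13 of 14 tested genes called higher, and Elavl4, singled out after its values were seen, was at 0 in all 3 WT libraries. All 13 had WT means under 0.5 FPKM, and so did Synpo2 and Lmod1 among the called muscle markers. These genes passed the filter only through their Gm31629-/- values. The most abundant neuron and glia markers were Vip with 44.0 ± 36.7, Prph with 37.8 ± 21.5, and Uchl1 with 29.2 ± 14.6 FPKM in Gm31629-/- mice and at most 0.230 ± 0.224 FPKM in WT mice.  The part of these tissue differences in the members' values was not tested.

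Markers of other cell types moved as well. Their counts stand beside 18.4% of all tested genes called higher and 4.64% called lower. Of markers called higher, Kcnn3, Lum, Kdr, Tek, Tie1, Vwf, Egfl7, Emcn, Adgre1, Cd163, Mrc1, Cxcr2, Upk3b, and Hdc had WT means under 0.5 FPKM. They passed the filter only through their Gm31629-/- values. All 8 PDGFRA-positive and fibroblast markers were called higher (201 to 568 FPKM summed against 17.5 to 37.6), led by Col3a1, Dcn, and Dpt, and so were all 8 endothelial markers (43.9 to 93.0 against 2.59 to 6.52), led by Pecam1, Cdh5, and Tie1. Pdgfra itself had 8.19, 24.5, and 19.3 FPKM in Gm31629-/- mice 1 to 3, the same order of mice as Gja1. That order was not particular to Pdgfra, since markers of other lists, such as Cdh5 and Csf3r, also had it. All 8 macrophage markers (326 to 666 against 31.5 to 39.0) and all 6 neutrophil markers (507 to 1030 against 70.4 to 128) were called higher, with C1qa, C1qb, and C1qc and with Ly6g, S100a9, and S100a8 as the most abundant. Ly6g made up most of the neutrophil sum, with 288, 596, and 965 FPKM in Gm31629-/- mice 1 to 3. S100a9 had the opposite order of mice, with 120, 77.2, and 35.0 FPKM, and so had S100a8 and Retnlg. Of 4 mesothelial markers, 2 were tested and both were called higher (3.04 to 36.4 against 0.552 to 1.08 summed), and the most abundant were Msln, Upk3b, and Lrrn4. Upk3b was called in only 1 of the 6 fits without 1 mouse, and Msln in 4. Of the 12 epithelial markers, 5 were called lower and 0 higher (8620 to 11300 against 16800 to 18700 FPKM summed). The most abundant, all called lower, were Krt8 at 2040 ± 353 against 4200 ± 137 FPKM, Car1 at 1250 ± 842 against 4690 ± 787 FPKM, and Krt19 at 1040 ± 182 against 2070 ± 103 FPKM. The other 7 were not called. Among them Epcam had 1110 ± 104 against 1100 ± 85.1 FPKM, and the log2 fold changes of Cdh1, Muc2, Vil1, and Lgals4 were -0.04, -0.26, -0.51, and -0.50. Without Gm31629-/- mouse 1, Krt8 (-0.91) and Krt19 (-0.87) were not called, and without WT mouse 3 Car1 had a limma adjusted p of 0.0504. Mast cells, which also carry Kit, gave 5.02 to 27.5 FPKM summed over 10 markers in Gm31629-/- mice and 10.1 to 18.2 FPKM in WT mice. Of the 5 mast cell markers tested, 1, Hdc, was called higher, and the most abundant, Mcpt1 and Mcpt2, overlapped between the groups. Tpsab1 was at 0 in 5 of the 6 libraries. The part of these cell types in the levels of Kit and Gja1 was not tested.

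**Figure D2:**
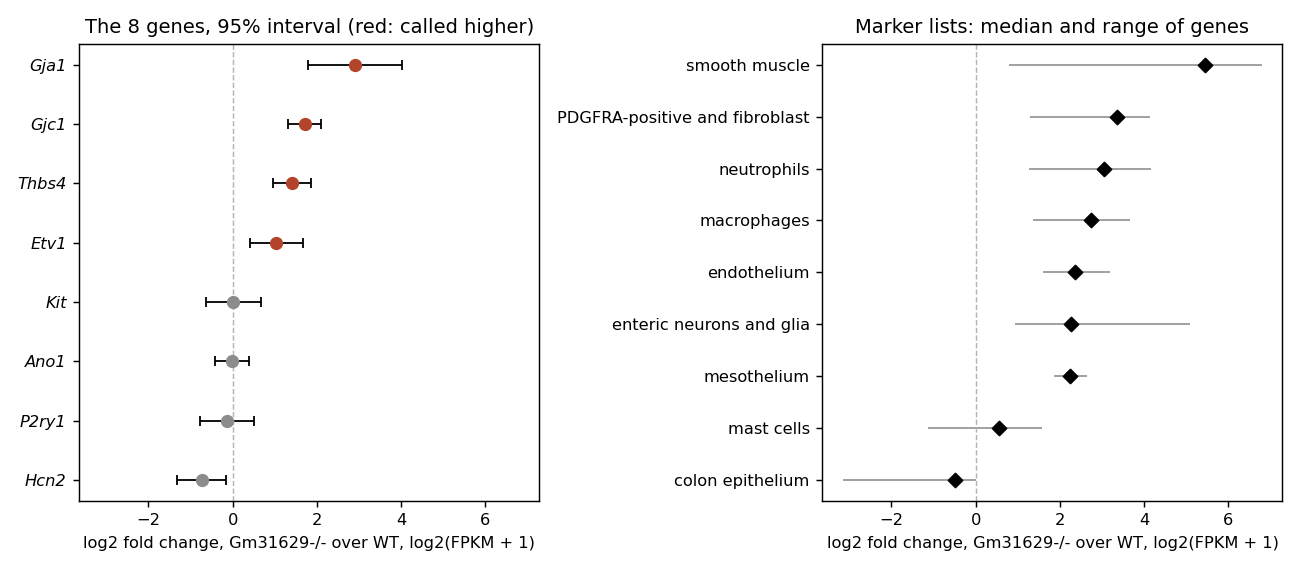
Left, log2 fold change of each of the 8 genes, Gm31629-/- over WT, on the log2(FPKM + 1) scale, with 95% intervals from limma. Right, on the same scale, the median (diamond) and range (line) of the tested genes of each marker list. Smooth muscle lies at a median of 5.45, while the largest value among the 8 genes is 2.91 and Kit and Ano1 lie at 0.02 and -0.02. The added 1 FPKM shrinks the change of genes with low WT levels.

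Set against the smooth muscle genes of the same library, the members shifted by different amounts. On the log2(FPKM + 1) scale, the mean of the muscle genes was 4.64 higher in Gm31629-/- mice, more than any member's own change. A negative shift for each member follows from those values and is not a separate result. The added 1 FPKM shrinks the change of genes with low WT levels, among members and muscle genes alike. With voom on recovered fragments, Gjc1 rose by 4.93, so the sizes of the shifts hold on this scale only. The measure was log2(FPKM + 1) of the member minus the mean log2(FPKM + 1) of the 12 muscle markers, and it was not tested. For Kit it went from 1.04 ± 0.39 in WT mice to -3.59 ± 0.24 in Gm31629-/- mice (SD, n = 3 each). For Ano1 it went from 1.36 ± 0.45 to -3.30 ± 0.58, and for Hcn2 from 1.38 ± 0.41 to -4.00 ± 0.45, the largest shift. The shift was smallest for Gja1, from -0.83 ± 0.20 to -2.56 ± 1.40, and it was -3.22 for Thbs4, -2.93 for Gjc1, and -3.60 for Etv1. The median shift over the members was -4.11. Against the 15 enteric neuron and glia markers the median shift was -2.0, and the shift of Gja1 was 0.37, with 0.87 ± 1.26 in Gm31629-/- mice against 0.49 ± 0.22 in WT mice and overlapping groups.

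**Figure D3:**
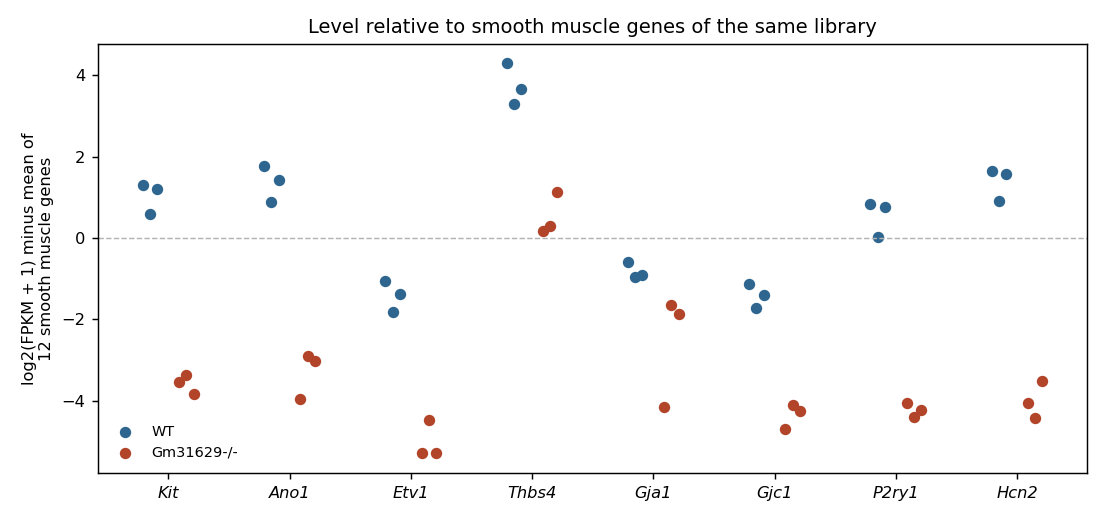
Level of each gene relative to smooth muscle in each library, as log2(FPKM + 1) minus the mean of the 12 smooth muscle genes (vertical axis), for WT (blue) and Gm31629-/- (red). All 3 Gm31629-/- points lie below all 3 WT points for each gene. On this scale the muscle mean rose by more than each gene, with shifts from -1.74 for Gja1 to -5.38 for Hcn2. The added 1 FPKM shrinks the change of genes with low WT levels.

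Other genes of pacemaking and of its control were taken from a list of 41 genes without the members. Of 35 tested, 17 were called higher and 3 lower in Gm31629-/- mice, against 18.4% and 4.64% of all tested genes. The median log2 fold change was 0.58 against 0.15 for the tested genes as a whole. Of the 17, Abcc9, Kcnma1, Kcnn3, Kcnj2, Cacna1c, Cacna1d, Tacr1, Chrm2, Gucy1a1, Gucy1b1, and Atp2b4 had WT means under 0.5 FPKM. They passed the filter only through their Gm31629-/- values. The list was also chosen with earlier results of these data known, so the counts are a description only. Without Gm31629-/- mouse 1 the counts were 15 and 2. Kitl, which encodes the Kit ligand, rose to 9.77 ± 5.26 FPKM against 3.08 ± 0.123 FPKM in WT mice (SD, n = 3 each). Its log2 fold change was 1.28 (limma adjusted p = 0.0239), while its receptor was not called. The Kitl call was lost without Gm31629-/- mouse 1 (0.92), without mouse 2 (limma adjusted p = 0.0583), and without any WT mouse (limma adjusted p from 0.0651 to 0.0791). Its values in Gm31629-/- mice 1 to 3 were 15.2, 9.40, and 4.71 FPKM, the same order of mice as for Kit. Markers of other cell types, such as Myh11 and S100a9, also had that order.

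All 6 potassium channel genes were called higher, and 5 of them also in each fit without 1 mouse. This count and those below stand beside 18.4% of all tested genes called higher. Abcc9, Kcnma1, Kcnn3, Kcnj2, Cacna1c, Cacna1d, Tacr1, Chrm2, Gucy1a1, and Gucy1b1 passed the filter only through their Gm31629-/- values. Kcnj8 and Abcc9, which form an ATP-sensitive potassium channel, rose by 4.80 and 3.66 on the log2 scale, with 53.5 ± 28.6 against 0.859 ± 0.616 FPKM and 15.5 ± 9.87 against 0.124 ± 0.105 FPKM. Kcnh2, Kcnn3, Kcnj2, and Kcnma1 rose by 1.35, 1.28, 1.06, and 1.02. The Kcnma1 call was lost in 5 of the 6 fits without 1 mouse, with 0.77 without Gm31629-/- mouse 1. All 3 tested voltage-gated calcium channel genes rose, namely Cacna1c (1.64), Cacna1h (1.44), and Cacna1d (1.13), the last not without Gm31629-/- mouse 2 (0.94). Among genes of nerve input and cyclic GMP, 5 of 7 tested rose. These were the substance P receptor Tacr1 (2.49), the muscarinic receptor Chrm2 (2.30), the guanylyl cyclase subunits Gucy1b1 (2.49) and Gucy1a1 (1.74), and the phosphodiesterase Pde5a (1.32). Chrm2 had 1, 1, and 0 fragments in WT mice, so its fitted value depends on the 1 FPKM added.

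Of 13 tested calcium store and entry genes, 2 were called higher and 2 lower, against 18.4% and 4.64% of all tested genes. Atp2b4, a plasma membrane calcium pump, rose by 2.98, and Itpr1, an inositol trisphosphate receptor of internal stores, rose by 1.04. The Itpr1 call was lost without Gm31629-/- mouse 2 (0.95) and without WT mouse 2, where the change fell just short of the threshold. The sodium-calcium exchanger Slc8a1 fell by 1.48 on the log2 scale, to 3.11 ± 1.30 FPKM against 10.1 ± 1.38 FPKM in WT mice. Itpr3 fell by 1.19, to 20.2 ± 6.15 FPKM against 46.0 ± 1.35 FPKM, and its call was lost without Gm31629-/- mouse 1 (-0.96). The other 9 were not called, among them the abundant pumps Atp2a3 (153 ± 46.7 against 260 ± 8.02 FPKM) and Atp2a2 (69.1 ± 13.7 against 82.3 ± 6.97 FPKM). Of the 4 chloride and bicarbonate transport genes, the anion exchanger Slc4a2 was called lower, with 15.8 ± 6.33 against 44.2 ± 8.06 FPKM (limma adjusted p = 0.00897). The chloride channel gene Clcn2 was not called and had 60.8 ± 29.2 against 88.9 ± 6.97 FPKM.

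**Figure D4:**
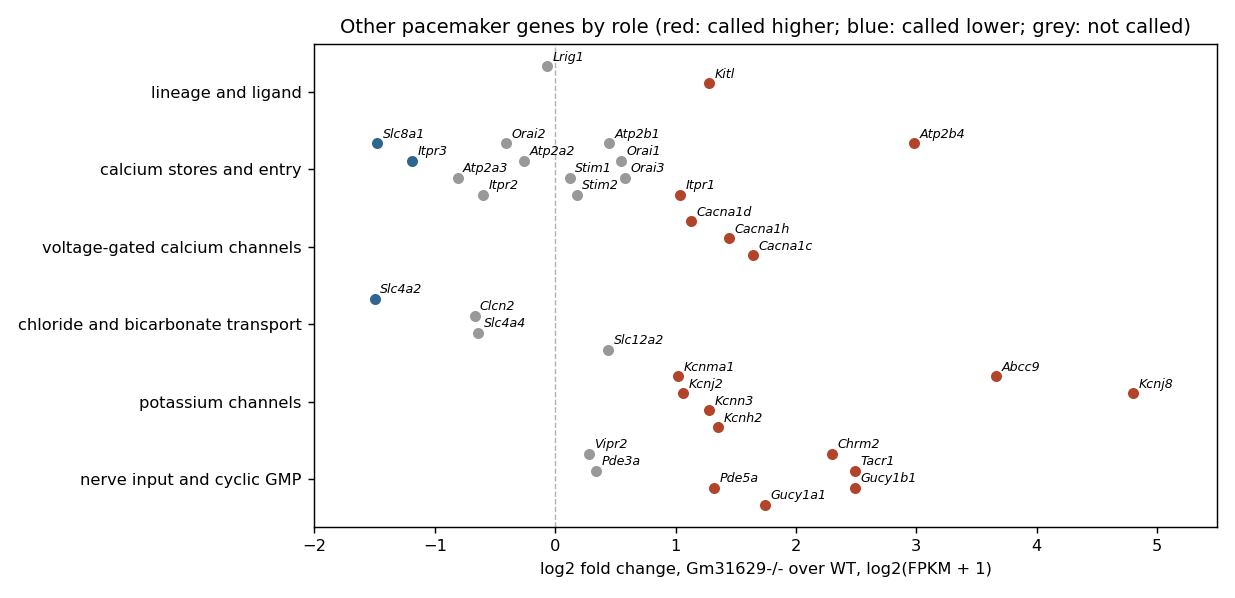
Log2 fold change of the 35 tested pacemaker genes, Gm31629-/- over WT, on the log2(FPKM + 1) scale (horizontal axis), by role (vertical axis); the height of a point within its role carries no value. All 6 potassium channel genes are called higher (red), while 2 of 13 calcium store and entry genes are called higher and 2 lower (blue). Of all tested genes, 18.4% are called higher and 4.64% lower. The potassium channel genes Abcc9, Kcnma1, Kcnn3, and Kcnj2 passed the filter only through their Gm31629-/- values.

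Relatives of the members were compared over a list of 47 genes, of which 43 were listed and 27 tested. Of these, 13 were called higher and 4 lower, against 18.4% and 4.64% of all tested genes. Some of those called higher, such as Gja5 and Thbs2 with WT means of 0.0161 and 0.0614 FPKM, passed the filter only through their Gm31629-/- values. The connexins split by gene. Besides Gja1 and Gjc1, the connexin genes Gja4 (1.81) and Gja5 (1.01, but 0.96 and not called without Gm31629-/- mouse 2) rose, whereas Gjb2 and Gjb1, known from epithelia, fell by 2.38 and 1.86. Gjb1 had 7.62 ± 1.72 FPKM in Gm31629-/- mice against 29.8 ± 0.566 FPKM in WT mice. All 3 tested thrombospondin relatives of Thbs4 rose, by 3.12 for Thbs1, 2.0 for Thbs2, and 1.81 for Thbs3, and Thbs1 had 31.2 to 94.7 FPKM in Gm31629-/- mice and 4.09 to 5.38 FPKM in WT mice.

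Among the anoctamins, Ano6, a phospholipid scramblase, was called higher (15.9 ± 5.86 against 4.94 ± 0.174 FPKM, log2 fold change 1.45, limma adjusted p = 0.00353). Ano9, the most abundant, and Ano10 had log2 fold changes of -0.81 and -0.67 and were not called. Of the 9 anoctamins listed besides Ano1, 5 were tested. Of the PEA3 group to which Etv1 belongs, Etv5 fell by 1.14 (3.11 ± 1.29 against 7.91 ± 2.08 FPKM) and Etv4 was not called (-0.33), while Etv1 rose. The Etv5 call was lost without Gm31629-/- mouse 1 (-0.92), WT mouse 1, or WT mouse 3. Among the receptor kinases related to Kit, Pdgfra, Csf1r, and Pdgfrb rose by 3.12, 3.04, and 1.91. Of 5 tested P2Y receptor genes, P2ry13, P2ry10, and P2ry4 rose by 1.59, 1.53, and 1.14. P2ry4 had 3.92, 0.770, and 1.22 FPKM in Gm31629-/- mice, and its call was lost in 5 of the 6 fits without 1 mouse, with 0.70 without mouse 1. The most abundant, P2ry2, was not called (15.6 ± 0.979 against 15.3 ± 3.04 FPKM). Hcn3 was the only other HCN gene tested and was not called (log2 fold change 0.55, limma adjusted p = 0.0973).

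Over the 6 libraries, the tested genes whose log2(FPKM + 1) was most like that of Kit were Gdap2, Il17d, and Rbm3, with Pearson's r of 0.987, 0.984, and 0.973. Those most like Ano1 were Nod2, Zfat, and Mob3a, with r of 0.992, 0.988, and 0.985. These are the extremes among 14649 genes over 6 libraries that share groups, depth, and tissue makeup, and they serve as a description. None of the 6 belongs to the lists above.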

How the data were processed

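RNA-Seq values of distal colon from 3 Gm31629-/- and 3 WT mice were used. The authors deposited 1 table of FPKM values, 1 column per mouse. The submitters' processing notes name HISAT2 2.1.0, HTSeq 0.6.0, and GRCm38. The annotation and the strand setting are not given in the sources used here. Symbols, positions, and exon lengths came from GENCODE M21 (GRCm38), which matched 27488 of 27546 identifiers.

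The members and lists were chosen with earlier results of these data known. Groups came from the genotype labels. The 14657 genes with a mean of at least 0.5 FPKM entered a limma 3.58.1 fit of log2(FPKM + 1), run in R 4.3.3 with trended empirical Bayes moderation, and p-values were adjusted over all of them by Benjamini-Hochberg. DEGseq, which the study used, was not run. Fragments were recovered as the depth at which low values became whole. A value was taken as whole within 0.1 of an integer, which held for 96.289% to 97.246% of a library's values of at most 20 fragments, and a value of 0 allows up to 3 fragments (counting error only).

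Named genes were all members, the called genes of the pacemaker and relative lists, the most abundant of the others, the 3 most abundant markers per list, and the 3 genes most correlated with Kit and with Ano1, and some genes that this rule names are not reported here. Alternatives were a pseudocount of 0.1, no filter or a mean of at least 1 FPKM, TPM scale, median ratio scaling, moderation without the trend, a block for the replicate number, voom on recovered fragments, an adjusted p alone, and leaving out each mouse. The fit was tested on simulated data. Python 3.11.15 and matplotlib 3.10.9 were used for tables and figures.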

Additional observations from a re-analysis of the deposited data

How the results depend on the processing

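Gja1, Gjc1, and Thbs4 were called higher under all 14 alternative fits, with log2 fold changes of 2.5 to 4.15, 1.60 to 4.93, and 1.16 to 1.59. Hcn2 was lower under all 14 (-0.94 to -0.47, adjusted p = 0.0187 to 0.154) and missed the threshold on fold in each, so that it was called only by the rule on adjusted p alone. Etv1 was not called after scaling by the median ratio (0.95) or in 5 of the 6 fits without 1 mouse (0.83 to 1.05, against 1.35 in the other, without Gm31629-/- mouse 3), and was not tested at a mean of at least 1 FPKM. The sign of Kit changed with median ratio scaling (-0.20), and without single mice Kit lay between -0.23 and 0.31, Ano1 between -0.16 and 0.09, and P2ry1 between -0.43 and 0.04. Median ratio scaling gave 2233 genes called higher and 1217 lower. With an adjusted p under 0.05 alone, 4238 genes were higher and 2138 lower, 1 member (Hcn2) was lower, and 5 genes of the pacemaker list were lower. Relative to enteric neuron and glia markers, the median shift of the members was -2.0 in place of -4.11. Deviations of same-numbered mice correlated between -0.108 and 0.036, and those of differently numbered mice between -0.133 and 0.116. With 3 libraries per group, these values cannot settle whether the numbers pair the mice. With the replicate number as a block, 2709 genes were called higher and 648 lower, the members' calls were kept, and Hcn2 had an adjusted p of 0.0578 in limma. At 18006000 to 18795100 fragments a library, WT levels of Gjc1 and Etv1 rest on 4 to 26 fragments.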

Other observations

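Genes of crypt base secretory cells, which in the mouse colon also carry Kit, were looked at after the values of the members were seen. Reg4, a marker of these cells, had 3.94, 14.6, and 3.84 FPKM in Gm31629-/- mice 1 to 3 and 40.3, 49.7, and 90.6 FPKM in WT mice, and the groups did not overlap (log2 fold change -3.00, limma adjusted p = 0.00376). Agr2, made by goblet and other secretory cells, had 280 ± 51.6 against 568 ± 154 FPKM (SD, n = 3 each), with an adjusted p of 0.0142 in limma. Spink4, another goblet cell gene, was not called, with 191 ± 91.1 against 256 ± 18.0 FPKM (adjusted p = 0.239). The part of these cells in the level of Kit was not tested.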
